A study of Mus musculus with 8 samples.

Results

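The Arf6 conditional knockout (cKO) was compared with its flox control in neutrophils recruited by lipopolysaccharide (LPS), the cell wall component of Gram-negative bacteria that is sensed through Toll-like receptor 4. The 6 arrays, of 8 in the series, were chosen by sample title and genotype label. The 3 cKO arrays came from animals with a floxed Arf6 allele and Cre, both homozygous (flox+/+Cre+/+). The 3 flox control arrays came from animals that carried the floxed allele alone (flox+/+Cre-/-). Both Cre control arrays (Cre+/+ without the floxed allele) served to estimate the spread, and their values are given beside some results. Every group was exposed to LPS in a subcutaneous air pouch, so no group shows neutrophils without LPS. Each array held RNA pooled from the pouches of 5 mice after negative selection, and 98% of the purified cells were Ly6G positive per the labels' protocols. The labels name neither the promoter that drives Cre nor the age or sex of the mice. In the source field the genotype differs from that in the title and the genotype label, which were used here, and the Arf6 signal, given first below, is the check on the grouping. Since the cKO carries Cre and the flox control does not, an effect of Cre cannot be told apart from one of Arf6 in this comparison.

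ARF6 is a small GTPase of the ADP-ribosylation factor family that cycles between the plasma membrane and endosomes. Exchange factors of the cytohesin, PSD and IQSEC families load it with GTP, and ACAP, GIT and ASAP proteins stimulate its hydrolysis. In its active form it recruits lipid kinases and phospholipase D, which shape membrane traffic, integrin recycling and the actin cytoskeleton. The series' title asks about glycolytic metabolism and effector functions of neutrophils. In these cells LPS switches on NF-kB transcription factors, whose targets include cytokines, the IkB proteins that hold NF-kB back, and further brakes of the same pathway.

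The values are log2 signals on a microarray, so a difference of 1 is a doubling, and levels are not compared between genes. Array medians lay between 5.41 and 5.46 and the highest reading of an array between 14.10 and 14.17. Correlations across probe sets ranged from 0.964 to 0.989 between the 6 arrays, genes not being independent replicates. The lowest was that of flox control replicate 1 with cKO replicate 2, which also lay at opposite ends of the first principal component (39.4% of the variance, scores 30.44 and -24.62). Sex-linked transcripts set 2 pools apart: Xist, which silences an X chromosome in female cells, read 5.46 in flox control replicate 1 and 7.84 to 10.21 in the other 5 arrays, and Y-linked Eif2s3y read 4.08 in cKO replicate 1 and 9.02 to 10.04 in the others. Those pools are called the sex-distinct pools below, and the counts of many lists at an unadjusted p under 0.05 are also given without them or without single arrays.

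Arf6 fell in the cKO. Its brighter probe set (gene identifier 11845, chromosome 12) read 6.49, 6.06 and 6.20 in the cKO pools against 8.19, 8.20 and 7.68 in the flox controls. The groups did not overlap, and the Cre controls (7.79 and 7.86) lay within the range of the flox controls. The cKO mean of 6.25 ± 0.22 (SD, n = 3) stood against a flox control mean of 8.02 ± 0.30 (SD, n = 3), a 3.42-fold lower signal. The log2 fold change was -1.77 (SE 0.17, 95% interval -2.15 to -1.40, limma adjusted p = 0.0162). The cKO signal was 29.2% of that in the flox control, which is a share of array signal and not of transcript, since background adds to both. A dimmer Arf6 probe set (17281565) differed by -0.26 (SE 0.17), from 6.55 ± 0.32 for the flox control to 6.29 ± 0.18 for the cKO (SD, 3 arrays each), and did not pass (limma adjusted p = 0.723). The Arf6 call was lost without flox control replicate 1 (limma adjusted p = 0.0774), flox control replicate 2 (0.193), cKO replicate 1 (0.0512), either Cre control (0.0811 each) or the sex-distinct pools (0.179), while its log2 fold change stayed between -1.94 and -1.68.

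Besides Arf6, 3 genes passed in a fit of 14002 probe sets: Cks2 fell, and Trim12a and Gart rose. In all 6 probe sets (0.0429% of those tested) had an adjusted p under 0.05, 3 of them being Cks2 probe sets with identical values. Counted by genes, with the brightest probe set standing for each of 13296 genes, 3 passed (0.0226%), because the Gart probe set that passed is not its brightest. An unadjusted p under 0.05 was reached by 1156 probe sets (8.26%). For 96.1% of genes the 95% interval of the log2 fold change lay within 1 of 0, so for these a doubling was outside the interval, while smaller differences are not bounded in this way. The median size of a log2 fold change was 0.12 and the median SE 0.14.

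Cks2 encodes a small subunit that binds cyclin-dependent kinases. It read 9.27, 9.10 and 9.34 in the cKO against 10.39, 10.34 and 10.15 in the flox control. All cKO arrays lay lower, and the Cre controls (9.87 and 9.79) lay between the groups. The log2 fold change was -1.06 (2.08-fold lower, SE 0.12, limma adjusted p = 0.0162). The remaining Cks2 probe set was lower too (-0.82, SE 0.16) and did not pass (limma adjusted p = 0.251). Other genes of cell cycle and proliferation did not follow it at an unadjusted limma p under 0.05. Of 27 tested, Cks2 included, 1 was lower at that p, which was Cks2 itself, and 0 were higher (3.87% and 4.26% of all genes). With Cks2 counted, 3 were lower without flox control replicate 3, without cKO replicate 3 or with array weights. The median log2 fold change of the list was -0.02. Mki67, the Ki-67 antigen of dividing cells, read -0.34 (SE 0.17).

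Trim12a, of the tripartite motif (TRIM) family on chromosome 7, differed most of all probe sets. It read 11.33, 8.83 and 10.88 in the cKO against 5.68, 5.80 and 6.0 in the flox control. The flox controls lay near the median of the arrays, the cKO pools far above them and far from each other, and the Cre controls (12.15 and 12.24) highest. The log2 fold change was 4.52 (22.9-fold higher, SE 0.51, limma adjusted p = 0.0162), and it was 5.28 without cKO replicate 2. Gart, a trifunctional enzyme of purine synthesis, read 6.56, 6.72 and 6.42 in the cKO against 5.71, 5.40 and 5.56 in the flox control. The groups did not overlap, and the Cre controls (6.42 and 6.33) lay near the cKO. The flox controls of this probe set lay near 5.45, the median of all values that served as the filter, with replicate 2 below it. The log2 fold change was 1.01 (2.02-fold higher, SE 0.13, limma adjusted p = 0.0367). The remaining Gart probe sets read 0.58 (SE 0.19) and 0.10 (SE 0.17) and did not pass. In both genes the Cre control, which has intact Arf6 and carries Cre like the cKO, read near or above the cKO.

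**Figure D1:**
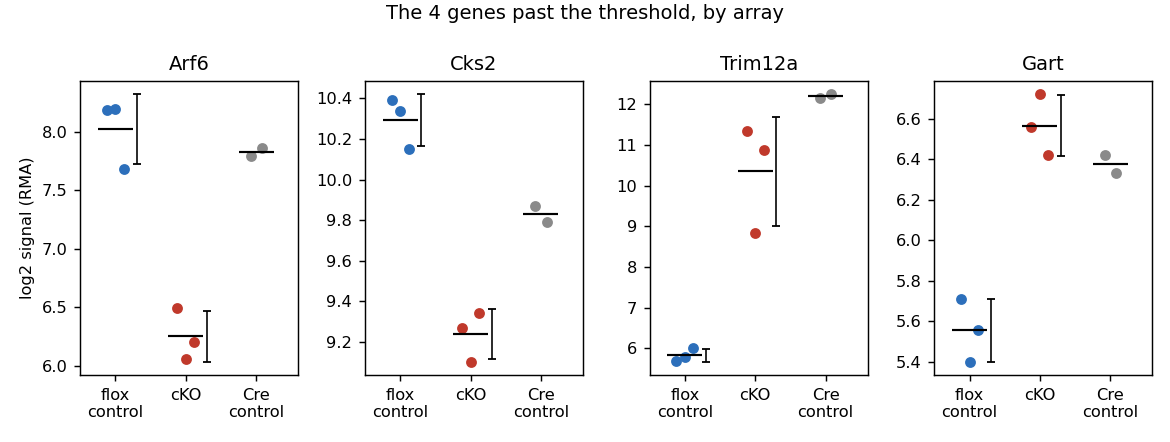
Log2 signal of the 4 genes past the threshold on each array, with the mean of a group as a horizontal line and its SD, for groups of 3, as an error bar; the y axes differ and do not start at 0. Arf6 and Cks2 lie lower in all 3 cKO arrays than in the flox controls, Trim12a and Gart higher, and the grey Cre controls lie with the flox control for Arf6 and nearer the cKO for Trim12a and Gart.

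These calls were not stable to the omission of single arrays. The Cks2 call was lost without flox control replicate 1 (limma adjusted p = 0.0774), flox control replicate 2 (0.193), cKO replicate 1 (0.131) or either Cre control (0.0811 each). The Trim12a call was lost wherever the Cks2 call was, and also without flox control replicate 3 (0.0898) or cKO replicate 3 (0.0532). That of Gart was lost without any 1 of the 8 arrays, with limma adjusted p between 0.0532 without cKO replicate 3 and 0.254 without flox control replicate 2. Over the 17 alternatives the 4 genes kept their direction.

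Genes next to Arf6, Trim12a and Gart along the chromosome were described as well. Of the 20 tested genes nearest to Arf6, 10 on each side, 1 had an unadjusted limma p under 0.05, against 8.13% of all genes. This was Nemf, a ribosome quality control factor next to Arf6 in gene order, at 0.26 (SE 0.11). No neighbour of Arf6 was lower at that p. Around Trim12a the count was 5 of 20: Trim34a (1.24, SE 0.23), the predicted gene Gm15133 (3.01, SE 0.53), Trim30b (0.94, SE 0.31) and Trim30d (2.20, SE 0.51) were higher, and Usp17la, a deubiquitinase gene, lower (-0.51, SE 0.15). Around Gart it was 4 of 20: Paxbp1 (0.74, SE 0.18), Donson, a replication fork factor (1.10, SE 0.26), and Cryzl1 (0.56, SE 0.14) were higher, and Ifnar1, a chain of the type I interferon receptor, lower (-0.56, SE 0.11). In the count around Trim12a, Gm15133 read 3.88, 4.38 and 3.97 in the flox controls, below the filter level of 5.45. It was tested only because its cKO and Cre control arrays exceeded that level. Usp17la exceeded it in flox control arrays alone (5.59 and 5.68). Both genes therefore entered the count through arrays where they read high.

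Within the Trim12 and Trim30 cluster the members differed among themselves. Trim30d, like Trim12a, read lowest of the cKO pools in replicate 2, with 11.14, 8.90 and 10.74 in the cKO against 8.79, 7.63 and 7.73 in the flox control. Trim34a read 9.01, 8.15 and 8.53 against 6.88, 7.56 and 7.52. In both genes the groups did not overlap, and the Cre controls (11.86 and 11.99 for Trim30d, 9.74 and 9.65 for Trim34a) were highest. Trim12c, which Gm15133 separates from Trim12a in gene order, differed by -0.17 (SE 0.29), Trim30a by 0.18 (SE 0.23) and Trim30c by -0.11 (SE 0.20). The Cre controls were highest for Trim30a (12.46 and 12.45) and Trim30c (11.78 and 11.77). For Trim12c they were lowest, at 7.38 and 6.96 against means of 9.29 in the cKO and 9.46 in the flox control. In 3 of the 8 tested members every cKO array lay above the flox controls (5.99% of all genes), 12.2% of genes being separate in either direction. Of the 8 members 5 were higher (52.7% of all genes were), 4 of them at an unadjusted limma p under 0.05 (4.26% of all genes), and the median of the list was 0.56 against 0.01 for all genes. Those 4 are Trim12a itself and Trim34a, Trim30b and Trim30d, already counted among its neighbours. The list was chosen with earlier results of these data known, so its counts add no separate support. These genes belong to 1 family, and their sequences were not compared here. A probe set may read more than 1 of them, so the values of single members are uncertain. The median was 0.19 without the sex-distinct pools, 0.29 without flox control replicate 1 and 0.82 without flox control replicate 3.

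**Figure D2:**
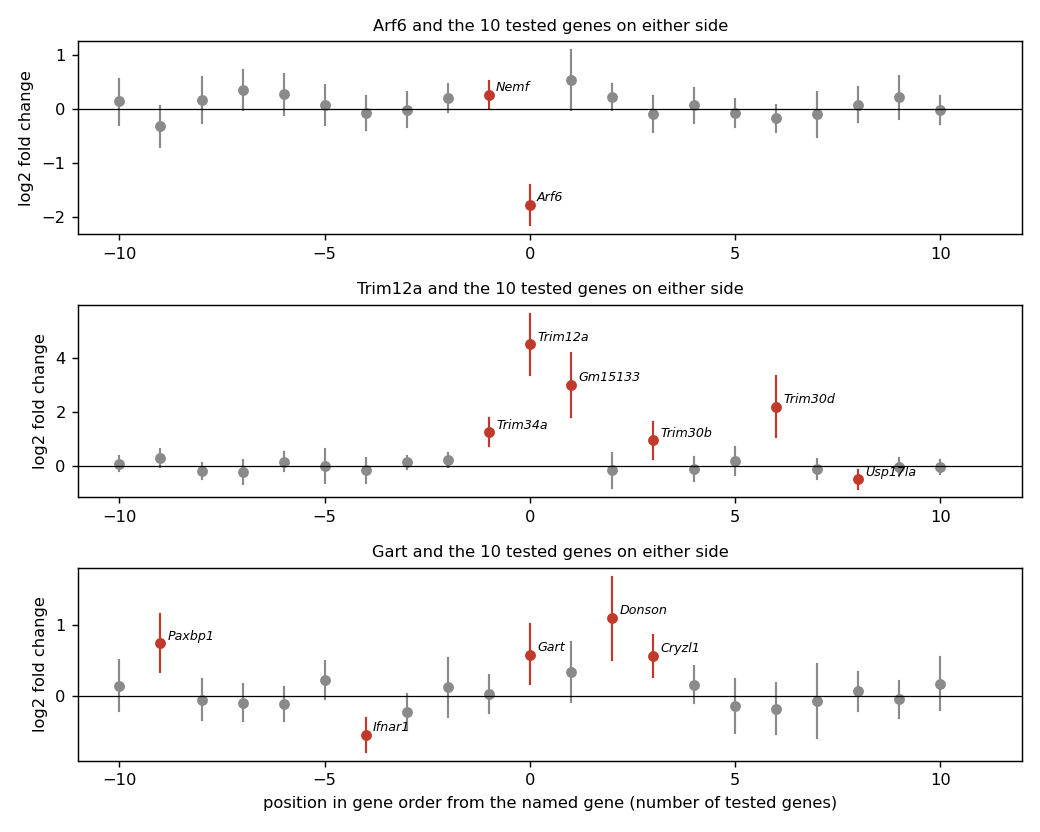
Log2 fold change (cKO minus flox control, y axis) with its 95% interval for the tested genes in order along the chromosome (x axis, number of genes from the named gene), red where the unadjusted limma p is under 0.05. Of 20 neighbours, 1 is marked around Arf6 (Nemf, above 0), 5 around Trim12a and 4 around Gart; each gene is shown by its brightest probe set, which for Gart is the one at 0.58.

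The genes next in order of p did not pass, and they are given by level. The lower genes come first. Il23a, which encodes the p19 subunit of interleukin 23, read 7.19, 7.05 and 8.25 in the cKO against 9.26, 9.39 and 9.74 in the flox control. All cKO arrays lay lower, by -1.96 on average (SE 0.31, limma adjusted p = 0.132), and of the Cre controls (8.66 and 7.95) the first lay between the groups and the second within the cKO range. Its adjusted p was 0.0347 in limma without cKO replicate 3 and 0.0456 with array weights. Icosl, the ligand of the costimulatory receptor ICOS, read 9.08, 8.79 and 9.41 against 9.85, 10.21 and 10.30 (-1.03, SE 0.18). Lacc1, a purine nucleoside enzyme of macrophages, read 7.66, 6.99 and 7.87 against 8.54, 8.97 and 9.05 (-1.35, SE 0.24).

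Lamb3, a laminin chain, was lower by -0.69 (SE 0.11), Ankrd22 by -1.04 (SE 0.17), Pwp1, a chromatin-associated WD-repeat protein, by -1.14 (SE 0.20), and Cdc42ep4, an effector of the GTPase CDC42, by -0.59 (SE 0.10). The kinase Pim2 (-0.89, SE 0.17) and the zinc finger genes Zfp119b (-1.18, SE 0.19) and Zfp719 (-0.99, SE 0.18) were lower as well. The Cre control read near the cKO for Ankrd22 (10.05 against 10.07), Lamb3 (7.23 against 7.02) and Cdc42ep4 (7.16 against 7.18). It read near the flox control, or above it, for Pwp1 (10.04 against 10.29) and Lacc1 (9.20 against 8.85). In this set of lower genes, then, the Cre control sides with the cKO for some and with the flox control for others.

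On the higher side Cdk5rap1, a tRNA-modifying enzyme of mitochondria, read 8.05, 7.17 and 7.96 in the cKO against 6.18, 6.32 and 6.39 in the flox control (1.43, SE 0.21, limma adjusted p = 0.104). The Cre controls (6.78 and 6.78) lay between the groups. Slc15a2, a peptide transporter, read 6.82, 7.44 and 7.17 against 5.63, 6.10 and 6.06 (1.21, SE 0.19), and Cd86, a costimulatory ligand, 9.40, 9.50 and 9.33 against 8.28, 8.77 and 8.55 (0.87, SE 0.14). These genes lie near each other on chromosome 16, with 1 tested gene between them. Stxbp5, a syntaxin-binding protein also known as tomosyn (0.71, SE 0.11), Il7r, the interleukin 7 receptor (0.78, SE 0.15), Frrs1, a ferric reductase (0.75, SE 0.15), and Nceh1, a cholesterol ester hydrolase (0.98, SE 0.21), were higher too. The phosphodiesterase Pde2a (0.49, SE 0.11) and the long noncoding RNA Dleu2 (0.65, SE 0.14) were the other higher genes named. Of these, Stxbp5, Cd86, Il7r and Pde2a read as high or nearly as high in the Cre control (9.89, 9.41, 8.43 and 9.28) as in the cKO (9.83, 9.41, 8.33 and 8.74).

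**Figure D3:**
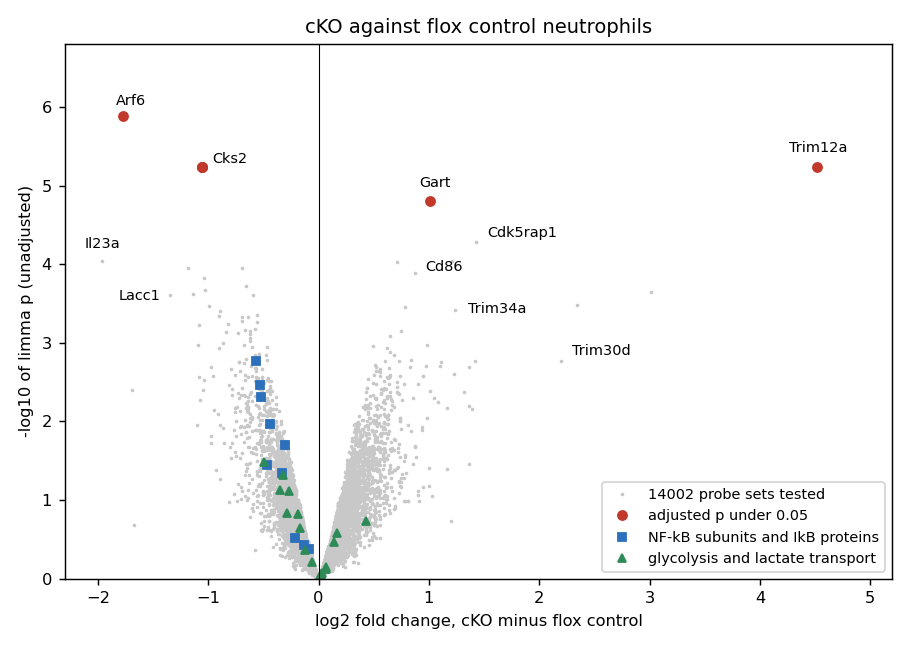
Each point is a probe set, with the log2 fold change (cKO minus flox control) on the x axis and -log10 of the unadjusted limma p on the y axis. The probe sets past the threshold are red (the 3 Cks2 probe sets coincide), the 10 NF-kB subunits and IkB proteins are blue squares, all left of 0, and the 19 genes of glycolysis and lactate transport are green triangles on both sides of 0.

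Genes of the ARF family and its regulators were compared next. Of 13 ARF and ARF-like GTPases tested, 2 were lower at an unadjusted limma p under 0.05, against 3.87% of all genes: Arf6 itself and Arf5, a Golgi ARF (-0.32, SE 0.14). Arf1, the most studied Golgi ARF, read 12.09, 11.96 and 11.96 in the cKO against 12.10, 11.97 and 11.95 in the flox control. The arrays overlapped, and its 95% interval was -0.24 to 0.24. Arf2 (-0.31, SE 0.24) and Arf3 (-0.15, SE 0.11) did not reach an unadjusted p under 0.05.

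Among 11 exchange factors, 1 was higher and 2 were lower at an unadjusted limma p under 0.05 (4.26% and 3.87% of all genes). Psd, an exchange factor for ARF6, read 6.39, 6.33 and 6.33 in the cKO against 6.72, 6.96 and 6.75 in the flox control (-0.46, SE 0.12). Cyth4, a cytohesin of blood cells, read 12.54, 12.38 and 12.42 against 12.81, 12.71 and 12.70 (-0.29, SE 0.11). Neither gene's groups overlapped (6.2% of all genes were lower without overlap), and the Cre controls of Cyth4 (12.35 and 12.33) were as low as the cKO. Arfgef2, which acts on Golgi and endosomal ARFs, was higher (0.90, SE 0.23), whereas Cyth1 (0.64, SE 0.39), Cyth2 (-0.24, SE 0.12) and Iqsec1 (0.11, SE 0.13) did not reach an unadjusted limma p under 0.05. None of the 20 GTPase activating proteins tested did either, among them Acap2 (0.28, SE 0.13), Git2 (-0.09, SE 0.11) and Asap1 (-0.02, SE 0.12).

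Of 35 effectors and recycling genes 18 were higher and 17 lower, with a median of 0.02. At an unadjusted limma p under 0.05, 1 was higher and 1 lower (4.26% and 3.87% of all genes). The higher count was 0 without flox control replicate 1 or cKO replicate 1, and 2 with array weights. The lower count was 3 without cKO replicate 3 and 4 with array weights. Ehd1, an ATPase of recycling endosomes, read 11.38, 11.12 and 11.54 in the cKO against 11.80, 11.88 and 11.91 in the flox control. All cKO arrays lay lower (-0.51, SE 0.13). Its relative Ehd3 was higher (0.42, SE 0.15), with overlapping arrays. The lipid kinases Pip5k1a (-0.23, SE 0.11) and Pip5k1c (0.13, SE 0.22), the phospholipase Pld1 (-0.06, SE 0.11) and the recycling GTPase Rab11a (-0.05, SE 0.13) did not reach an unadjusted limma p under 0.05.

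NF-kB subunits and IkB proteins were lower in the cKO in each of the 10 members tested, 7 of them at an unadjusted limma p under 0.05 (3.87% of all genes were lower at that p) and none at an adjusted p under 0.05. The median log2 fold change was -0.39 against 0.01 for all genes, of which 47.3% were lower. In 7 of the 10 the cKO arrays all lay below the flox controls, against 6.2% of all genes. Over the alternatives the median ranged from -0.45 to -0.31, and all 10 were lower in each of them but 1, without flox control replicate 3, where 9 were. The count at an unadjusted p under 0.05 was 4 without flox control replicate 2 or without the sex-distinct pools.

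Relb and Nfkb2 form the dimer of the noncanonical NF-kB pathway. Relb read 9.77, 9.95 and 10.19 in the cKO against 10.52, 10.53 and 10.57 in the flox control (-0.57, SE 0.13). Nfkb2 read 10.92, 11.10 and 11.32 against 11.50, 11.69 and 11.74 (-0.53, SE 0.14). In both the groups did not overlap and the Cre controls (10.47 and 10.24 for Relb, 11.49 and 11.29 for Nfkb2) read between the group means. Rela, the p65 subunit that most LPS responses use, read 11.80, 11.78 and 11.91 against 12.04, 11.91 and 11.83 (-0.09, SE 0.11), with overlapping arrays.

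The IkB proteins were lower by like amounts. Nfkbia, the inhibitor IkB alpha that NF-kB itself induces, read 13.26, 13.20 and 13.37 in the cKO against 13.53, 13.60 and 13.61 in the flox control (-0.30, SE 0.11). Nfkbib, or IkB beta, read 10.26, 10.20 and 10.61 against 10.97, 10.75 and 10.90 (-0.52, SE 0.14). Nfkbiz, the nuclear IkB zeta, read 12.19, 12.39 and 12.44 against 12.59, 12.75 and 13.01 (-0.44, SE 0.14). No cKO array of these 3 genes reached a flox control. Bcl3, another nuclear IkB protein, was lower by -0.47 (SE 0.19) and Nfkbie, IkB epsilon, by -0.33 (SE 0.14). Nfkbia lay within 1 of the highest readings of the arrays, where differences can be compressed.

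Nfkb2 and Nfkbia are themselves known targets of NF-kB, and they are the members of this list in whose promoter windows a kappa B site was matched. The sequences are from RefSeq (GRCm38.p6), and the 250 bases before the annotated start are shown, 5′ to 3′ on the strand of the gene, with the match in capitals. The first Nfkb2 window is chr19:46305445-46305694 on the plus strand (match at position -236). Another match, at position 11, lies in the 50 bases after that start, which were searched but are not shown. The second Nfkb2 window, of a start site further along the gene, is chr19:46305680-46305929 on the plus strand. Its match at position -225 is the same site as the one at position 11 of the first. The Nfkbia window is chr12:55492648-55492897 on the minus strand (match at position -29).
Nfkb2, first start: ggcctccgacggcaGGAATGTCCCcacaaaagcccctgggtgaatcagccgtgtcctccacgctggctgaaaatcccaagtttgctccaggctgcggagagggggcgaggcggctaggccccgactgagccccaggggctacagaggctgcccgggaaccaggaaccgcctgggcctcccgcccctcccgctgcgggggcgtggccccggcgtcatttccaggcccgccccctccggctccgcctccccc
Nfkb2, second start: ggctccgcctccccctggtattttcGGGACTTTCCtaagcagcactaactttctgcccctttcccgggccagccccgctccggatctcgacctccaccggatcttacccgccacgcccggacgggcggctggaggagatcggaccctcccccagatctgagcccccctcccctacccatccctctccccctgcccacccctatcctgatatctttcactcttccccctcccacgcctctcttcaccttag
Nfkbia: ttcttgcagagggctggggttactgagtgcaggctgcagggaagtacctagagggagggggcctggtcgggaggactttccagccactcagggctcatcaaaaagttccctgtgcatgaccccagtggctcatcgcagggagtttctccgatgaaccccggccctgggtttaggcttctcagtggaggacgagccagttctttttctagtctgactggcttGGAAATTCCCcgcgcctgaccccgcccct
The motif searched was GGGA and TTCC with 2 bases of any kind between them, on both strands, in windows of 300 bases (250 before and 50 after the start). It was found for 2 of the 8 members with a window in the table, against 1.84% of all tested genes with a window. Over this list, the brakes, the other NF-kB targets and the cytokines together it was found for 9 of 68 genes. Members lower at an unadjusted limma p under 0.05 held it in 2 of 21 and the other members in 7 of 47, counts too small to compare. A match is a description of the sequence and not a binding site.

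Brakes of the LPS response that the response itself induces went both ways, with 14 of 22 lower (47.3% of all genes were), 8 lower and 2 higher at an unadjusted limma p under 0.05 (3.87% and 4.26% of all genes), none at an adjusted p under 0.05, and a median of -0.10. Tnfaip3, the ubiquitin-editing enzyme A20, read 12.78, 12.80 and 13.02 in the cKO against 13.29, 13.30 and 13.33 in the flox control (-0.44, SE 0.12). Zc3h12a, the ribonuclease Regnase-1 that degrades cytokine messages, read 10.58, 10.14 and 10.88 against 11.26, 11.23 and 11.25 (-0.71, SE 0.17). Dusp2, a phosphatase of MAP kinases, read 10.61, 9.69 and 10.95 against 11.60, 11.45 and 11.35 (-1.05, SE 0.28). In these 3 genes the flox controls lay close together and every cKO array below them, and cKO replicate 3 lay nearest to the controls.

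Tnip1 (-0.67, SE 0.18) and Tnip3 (-0.76, SE 0.22), which bind A20, Irak3, an inhibitor of Toll-like receptor signalling (-0.41, SE 0.14), and Socs3, an inhibitor of cytokine receptor signalling (-0.42, SE 0.15), were lower as well, and their groups did not overlap. Atf3, a stress-induced repressor (0.49, SE 0.18), and Dusp4 (0.42, SE 0.15) were higher. Without cKO replicate 2, in which the list's mean level was lowest (10.20 against 10.46 and 10.56), 12 of 22 were higher, the median was 0.01 and 5 were lower at an unadjusted limma p under 0.05. The higher count was 0 without flox control replicate 3.

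**Figure D4:**
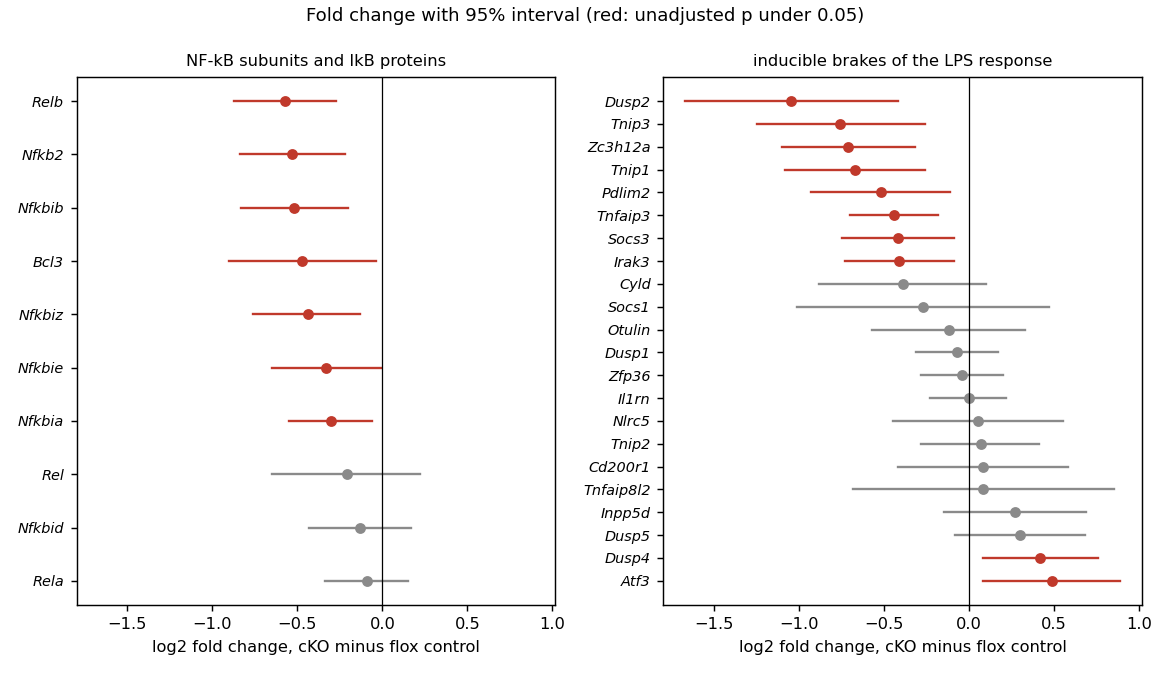
Log2 fold change (cKO minus flox control, x axis) with its 95% interval for each tested NF-kB subunit or IkB protein (left) and each tested brake of the LPS response (right), red where the unadjusted limma p is under 0.05. All 10 genes on the left lie below 0, while the 22 on the right spread to both sides, with 8 red below and 2 red above 0.

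Cytokines and chemokines induced by LPS went both ways. Of 35 tested 21 were lower (47.3% of all genes were), and the median was -0.03. The log2 fold changes ran from -1.96 to 0.53. In 6 members every cKO array lay below the flox controls and in 1 above them (6.2% and 5.99% of all genes). At an unadjusted limma p under 0.05, 4 were lower and 2 higher (3.87% and 4.26% of all genes). The higher count was 0 without flox control replicate 1, flox control replicate 3, cKO replicate 1 or the sex-distinct pools. After Il23a came Tnfsf9, the ligand of 4-1BB, with 7.36, 6.58 and 7.79 in the cKO against 8.60, 8.28 and 8.08 (-1.08, SE 0.27), and Il12a, the p35 subunit of interleukin 12, with 7.59, 7.95 and 8.65 against 9.16, 8.73 and 9.15 (-0.95, SE 0.28). Neither gene's groups overlapped. Il1a read 12.35, 12.55 and 12.71 against 12.94, 12.85 and 13.02 (-0.40, SE 0.13). In Tnf (-0.34, SE 0.20) and Il6 (-0.38, SE 0.24) the arrays overlapped. Il1b (-0.01, SE 0.10), Ccl3 (0.02, SE 0.11) and Cxcl2 (0.00, SE 0.11) read alike in both groups, at 13.43 to 14.08 near the top of the scale, where a difference may be compressed. Ccl22 (0.53, SE 0.23) and Cxcl16 (0.40, SE 0.16), chemokines also made by dendritic cells and macrophages, were higher.

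Of 27 further NF-kB targets 19 were lower (47.3% of all genes were), with a median of -0.19. At an unadjusted limma p under 0.05, 7 were lower and 1 higher (3.87% and 4.26% of all genes). Icam1, an adhesion ligand of integrins, read 11.71, 11.23 and 12.27 in the cKO against 12.48, 12.34 and 12.33 in the flox control (-0.65, SE 0.22). Bcl2a1a, a survival protein of the BCL-2 family, was lower by -0.71 (SE 0.21), the mitochondrial superoxide dismutase Sod2 by -0.39 (SE 0.14) and the death receptor Fas by -0.26 (SE 0.11). The higher gene was Cd86. Without cKO replicate 2 the count of lower members at an unadjusted p under 0.05 was 2, without flox control replicate 1 it was 3, without cKO replicate 1 it was 4, and without cKO replicate 3 it was 11. It was 1 without the sex-distinct pools.

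Among 31 LPS receptors and signalling genes 4 were higher and 5 lower at an unadjusted limma p under 0.05 (4.26% and 3.87% of all genes), with a median of 0.04. The lower count was 1 without the sex-distinct pools and 3 without flox control replicate 1, flox control replicate 2 or cKO replicate 2, the higher count was 1 without cKO replicate 1, and without cKO replicate 3 there were 6 higher and 7 lower. The receptor Tlr4 (-0.02, SE 0.16) and its co-receptor Cd14 (-0.06, SE 0.13) read alike in both groups. The adaptor Myd88 (-0.30, SE 0.13) and the adaptors Traf1 (-0.50, SE 0.14) and Traf2 (-0.41, SE 0.12) were lower, as was the kinase Ikbke (-0.78, SE 0.28). Tlr6, which pairs with Toll-like receptor 2, read 11.23, 11.34 and 11.02 in the cKO against 10.83, 10.60 and 10.81 in the flox control (0.45, SE 0.13), with no overlap.

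Immediate early genes, which are transcribed within minutes of a stimulus, were lower in 20 of 25 members (47.3% of all genes were). The median was -0.17, and 5 were lower and 1 higher at an unadjusted limma p under 0.05 (3.87% and 4.26% of all genes). Nr4a1, a nuclear receptor, read 12.65, 12.19 and 12.77 in the cKO against 13.05, 12.97 and 13.20 in the flox control (-0.53, SE 0.17), and Ier2 10.23, 9.65 and 10.55 against 11.26, 11.04 and 10.43 (-0.77, SE 0.25). The groups were separate for Nr4a1 and overlapped for Ier2. Junb, an AP-1 subunit, was lower by -0.32 (SE 0.14) and Btg2 by -0.34 (SE 0.13). The mean level of the list was 10.36 to 10.52 in the cKO and 10.45 to 10.76 in the flox control, with flox control replicate 3 inside the cKO range. The count of lower members at that p was 10 without flox control replicate 3, 3 without flox control replicate 1, flox control replicate 2 or cKO replicate 1, and 2 without the sex-distinct pools.

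Interferon-stimulated genes were lower in 34 of 38 members (47.3% of all genes were), with a median of -0.15, but 4 reached an unadjusted limma p under 0.05 (3.87% of all genes were lower at that p). These were the deaminase Apobec3 (-0.64, SE 0.19), the ubiquitin-like Isg15 (-0.34, SE 0.11), the transcription factor Irf9 (-0.26, SE 0.10) and the tetherin Bst2 (-0.43, SE 0.18). The mean level of the list was 11.38, 11.10 and 11.64 in the cKO against 11.62, 11.56 and 11.40 in the flox control. The arrays overlapped, cKO replicate 2 was lowest and cKO replicate 3 highest of the 6. Without cKO replicate 2 the median was -0.01 and 21 of 38 were lower, and without cKO replicate 3 it was -0.27 with 12 lower at an unadjusted limma p under 0.05. The count at that p was 2 without flox control replicate 1, flox control replicate 2, cKO replicate 1 or cKO replicate 2, and 0 without the sex-distinct pools.

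Glycolysis and lactate transport did not separate the groups. Of 19 genes 10 were higher and 9 lower, and the median was 0.00. At an unadjusted limma p under 0.05, 2 were lower (3.87% of all genes). That count was 0 with quantile scaling or without flox control replicate 2, and 5 with array weights. The hexokinase Hk2 read 9.90, 9.39 and 10.22 in the cKO against 10.13, 10.45 and 10.39 in the flox control (-0.49, SE 0.20), and the phosphofructokinase Pfkl 9.15, 9.05 and 8.80 against 9.14, 9.45 and 9.39 (-0.32, SE 0.14). The arrays of both overlapped. The glucose transporter Slc2a1 (-0.06, SE 0.11), Gapdh (0.03, SE 0.13), the pyruvate kinase Pkm (0.00, SE 0.11) and the lactate dehydrogenase Ldha (-0.12, SE 0.14) had 95% intervals of -0.29 to 0.18, -0.25 to 0.31, -0.25 to 0.26 and -0.43 to 0.20. For 18 of the 19 the interval lay within 1 of 0.

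Other carbon metabolism was alike. Oxidative phosphorylation had a median of -0.01 over 44 genes, none of which reached an unadjusted limma p under 0.05, and its mean level was 7.67 to 7.70 in the cKO and 7.46 to 7.90 in the flox control. The citric acid cycle and fatty acid oxidation (30 genes, median 0.07), glycogen and the pentose phosphate pathway (12 genes, median 0.06) and HIF-1 regulators and targets (18 genes, median -0.05) gave at most 1 gene each at that p: Dld, a subunit of the pyruvate dehydrogenase complex (-0.33, SE 0.12), and Ddit4, an inhibitor of mTORC1 (-0.68, SE 0.24). Hif1a read 0.12 (SE 0.16). Of 20 lipid droplet and triglyceride enzymes 1 was higher, the droplet coat protein Plin2 (0.55, SE 0.23), and 3 were lower, the synthase Dgat2 (-0.65, SE 0.27), the acyl-CoA synthetase Acsl5 (-0.47, SE 0.16) and the lipase inhibitor G0s2 (-0.28, SE 0.12), at an unadjusted limma p under 0.05 that 4.26% and 3.87% of all genes reached in these directions. The lower count was 1 in the 6 arrays alone, without either Cre control or without cKO replicate 3, and 0 without flox control replicate 2.

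Targets of NRF2, the transcription factor of the oxidant response, were higher in 11 of 17 members (52.7% of all genes were). Their median was 0.26. At an unadjusted limma p under 0.05, 4 were higher and 1 lower (4.26% and 3.87% of all genes), none at an adjusted p under 0.05. Nqo1, a quinone reductase, read 7.41, 8.62 and 6.64 in the cKO against 6.11, 6.25 and 6.23 in the flox control (1.36, SE 0.39). Gclm, a subunit of the enzyme that limits glutathione synthesis, read 9.56, 10.42 and 9.02 against 8.69, 8.71 and 8.45 (1.05, SE 0.29). Hmox1, heme oxygenase 1, read 10.89, 11.57 and 10.58 against 10.55, 10.32 and 9.64 (0.84, SE 0.28). All cKO arrays lay above the flox controls in these 3 genes, and in each cKO replicate 2 was highest. Gclc, the catalytic subunit for glutathione, was higher by 0.60 (SE 0.21). The Cre controls (6.06 and 6.45 for Nqo1, 8.13 and 8.43 for Gclm) read with the flox control. The list's mean level was 10.35, 10.66 and 10.16 in the cKO against 10.13, 10.12 and 9.96 in the flox control. Without cKO replicate 2 the median was 0.17 with 3 members higher at an unadjusted p under 0.05, and without cKO replicate 3 it was 0.32 with 7. It was also 0.17 without flox control replicate 1.

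Genes of the integrated stress and unfolded protein response split: 11 of 22 were higher, with 2 higher and 4 lower at an unadjusted limma p under 0.05 (4.26% and 3.87% of all genes). The lower count was 1 without cKO replicate 1 or the sex-distinct pools, and 2 without flox control replicate 1 or cKO replicate 3. Herpud1, a factor of endoplasmic reticulum degradation, read 10.15, 10.10 and 10.15 in the cKO against 10.63, 10.61 and 10.58 in the flox control (-0.47, SE 0.10). The groups were narrow and separate, and the Cre controls (10.15 and 9.99) read with the cKO. The chaperone Hspa5 (-0.31, SE 0.12) and the co-chaperone Dnajb9 (-0.28, SE 0.12) were lower too. The higher genes were Atf3 and Slc3a2, an amino acid transporter subunit (0.39, SE 0.17).

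Genes of neutrophil identity and effector function were then described. Neutrophil markers read high: S100a8 read 13.13 to 13.36 and Csf3r, the receptor of granulocyte colony-stimulating factor, 13.23 to 13.46 over the 6 arrays. Some macrophage and monocyte markers read high too. The cKO and flox control means were 12.46 and 12.55 for Ly6c2, 10.37 and 10.41 for Csf1r, and 10.02 and 10.28 for Adgre1. C1qa read lower, at 7.08 and 7.29. Levels are not compared between genes, so these readings do not settle the share of other cells. Of 29 core markers 1 was lower at an unadjusted limma p under 0.05 (3.87% of all genes), the receptor Trem3 (-0.36, SE 0.12). With array weights 4 were lower, and the median in the main fit was -0.03. Ly6g, the surface antigen of the purity check, read 10.54, 11.08 and 10.98 in the cKO against 11.47, 11.20 and 10.96 in the flox control (-0.34, SE 0.17), and Cxcr2 read 0.01 (SE 0.11).

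Specific and gelatinase granule genes were lower in 22 of 29 members (median -0.18), of which 2 reached an unadjusted limma p under 0.05, near the 3.87% of all genes: Wfdc21 (-0.55, SE 0.17) and the stefin Stfa2 (-0.49, SE 0.18). The count was 6 without cKO replicate 3, 4 without flox control replicate 3 and 0 without the sex-distinct pools, where the median was -0.03. Azurophil granule genes, which are made earlier in the marrow, had a median of 0.01 over 10 members. Of 9 NADPH oxidase and proton channel genes Ncf1, the p47phox organizer subunit, was lower, with 12.24, 11.76 and 12.20 in the cKO against 12.47, 12.66 and 12.66 (-0.53, SE 0.15) and no overlap. The proton channel Hvcn1 was higher (0.49, SE 0.21), and the membrane subunit Cybb (-0.19, SE 0.17) did not reach an unadjusted limma p under 0.05.

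Chemoattractant receptors had a median of 0.00 over 22 genes. At an unadjusted limma p under 0.05, 3 were higher and 1 lower (4.26% and 3.87% of all genes). The higher count was 1 without cKO replicate 1, without the sex-distinct pools or with array weights. The lower count was 3 without cKO replicate 3. Cxcr1, a chemokine receptor of neutrophils, read 7.51, 8.32 and 7.50 in the cKO against 6.49, 7.49 and 6.42 in the flox control (0.98, SE 0.30). Every cKO array lay higher, by 0.01 at the closest. C5ar2, the second C5a receptor, was lower (-0.47, SE 0.14), and Cmklr1, the chemerin receptor, higher (0.48, SE 0.16). Of 27 adhesion genes 2 were higher and 3 lower: the integrin chains Itga4 (0.58, SE 0.21) and Itgav (0.57, SE 0.25) against Itga5 (-0.46, SE 0.16), Lamb3 and Icam1. The higher count was 0 without flox control replicate 1, cKO replicate 1 or the sex-distinct pools, and the lower count 1 without cKO replicate 2. The Mac-1 chains Itgam (0.07, SE 0.13) and Itgb2 (0.04, SE 0.10) did not reach that p. Pirb, an inhibitory receptor, was lower (-0.47, SE 0.12). Of 12 eicosanoid genes, Ptges2, a prostaglandin E synthase, was lower, with 6.64, 6.23 and 6.85 against 7.63, 7.58 and 7.22 (-0.90, SE 0.20) and separate groups.

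Of the marker lists of other cells, that of dendritic cells and class II genes differed in mean level without overlap between the groups, and the others overlapped. No member passed an adjusted p under 0.05. In a bulk sample fewer cells of a type and less RNA per cell cannot be told apart. Of 18 dendritic cell and class II genes 14 were higher (52.7% of all genes were), 6 at an unadjusted limma p under 0.05 (4.26% of all genes) and none lower, with a median of 0.16. The class II chain H2-Ab1 read 11.08, 11.07 and 10.86 in the cKO against 10.47, 10.70 and 10.14 in the flox control (0.57, SE 0.15), and H2-Aa 9.79, 9.90 and 9.52 against 8.99, 9.46 and 8.81 (0.65, SE 0.17). The groups did not overlap. Fscn1, an actin bundler of mature dendritic cells (0.59, SE 0.18), and the chemokine receptor Ccr7 (0.73, SE 0.26) were higher too. Other members, 4 of the 18, were lower without reaching that p. Of further dendritic cell markers, Flt3 read 6.66, 6.98 and 6.51 in the cKO against 5.99, 6.61 and 6.59 in the flox control. Cd209a read 9.70, 10.22 and 9.92 against 10.42, 10.08 and 9.90, with a lower cKO mean. The arrays of both overlapped. The mean level of the list was 7.73 to 7.85 in the cKO and 7.45 to 7.66 in the flox control, and 7.77 and 7.86 in the Cre control. The count was 3 without the sex-distinct pools and 4 with array weights.

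Of 21 T and NK cell markers 17 were higher (52.7% of all genes were). The median was 0.26 (0.12 without the sex-distinct pools and 0.38 without cKO replicate 2). At an unadjusted limma p under 0.05, 4 were higher (4.26% of all genes). Il7r led, followed by Cd8a (0.35, SE 0.11), Il2rb (0.55, SE 0.22) and Klrk1 (0.49, SE 0.21). The mean level of the list was 6.48 to 6.70 in the cKO and 6.25 to 6.54 in the flox control, and the defining marker Cd3e read 6.15 to 6.45 and 5.65 to 6.35. Leaving out flox control replicate 2 gave a count of 9 and leaving out cKO replicate 2 one of 7, whereas it was 2 without cKO replicate 1, cKO replicate 3, flox control replicate 3 or the sex-distinct pools. Of 9 eosinophil, basophil and mast cell markers 6 were higher (median 0.28), Prg2, a granule protein of eosinophils, by 0.60 (SE 0.22), which was the 1 member at an unadjusted limma p under 0.05 (3 without cKO replicate 3), with mean levels of 7.53 to 8.14 in the cKO and 7.39 to 7.80 in the flox control. That median was 0.01 with array weights and 0.54 without flox control replicate 2. The B cell genes Cd79a (4.57 to 5.15) and Ms4a1 (3.73 to 4.25) read below the filter level of 5.45 on all 6 arrays. Macrophage and monocyte markers had a median of 0.06 over 23 genes and mean levels of 8.10 to 8.33 in the cKO and 7.98 to 8.33 in the flox control. The part of these cells in Cd86, Il7r, Ccr7 and the other higher genes was not tested.

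**Figure D5:**
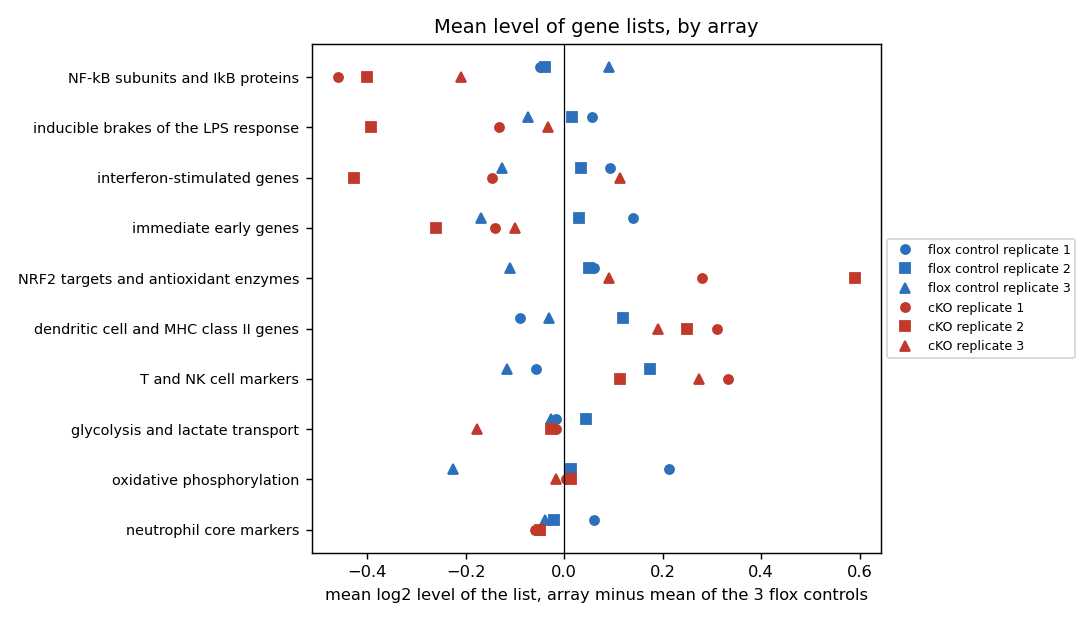
Mean log2 level of 10 gene lists on each array, as the difference from the mean of the 3 flox controls (x axis), with a symbol for each replicate. The cKO arrays lie below all flox controls for NF-kB subunits and IkB proteins and above all of them for dendritic cell and class II genes, lie above them for NRF2 targets with cKO replicate 2 highest, lie on both sides of 0 for interferon-stimulated genes with cKO replicate 2 lowest, and overlap for glycolysis and oxidative phosphorylation.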

How the data were processed

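The labels name Affymetrix Mouse Gene 2.0 ST arrays. The deposited log2 signals came from the authors' Robust Multiarray Analysis (RMA) in Expression Console, per the series' design text. RNA isolation and labelling reagents differ between that text and the labels' protocols. For the probe sets, a genome build was not given in the sources used here. Probe sets with 1 gene symbol (23521 of 34472) that exceeded the median of all values (5.45) in at least 2 arrays were tested. Symbols were updated by gene identifier through RefSeq GRCm38.p6. limma 3.58.1 in R 4.3.3 fitted the cKO, flox control and Cre control (8 arrays) together, two-sided, with Benjamini-Hochberg adjustment over all 14002 probe sets and a threshold of 0.05. Errors of fold changes are standard errors of that fit, and intervals are 95%. Each pool is 1 replicate. With 3 pools against 3 an exact two-sided permutation test cannot give a p below 0.1, so none was used. Lists were described with the brightest probe set per gene. The members, lists and tests were chosen with earlier results of these data known. Named were Arf6, every gene past the threshold, 12 genes in each direction with the smallest p among those whose groups did not overlap (predicted genes such as Gm15133, microRNA and small nucleolar RNA genes left out), the neighbours of Arf6, and in each list preset members and the 4 with the smallest p. Bcl3, Nfkbie, Tnip3, Irak3, Socs3, Dusp4, Ccl22, Cxcl16, Gclc, Dnajb9, Slc3a2, Junb, Btg2, Itgav and the neighbours of Trim12a and Gart were chosen after their values were seen. On simulated data with 200 of 14002 probe sets changed, the pipeline recovered 92.4% at a log2 change of 1 and 16.9% at 0.5, and 6.03% of its calls were false. The simulated noise was normal and independent, with the spread of the fit and no outlying arrays. These rates therefore need not hold for the real arrays. Alternatives were 6 arrays alone, other filters, scalings and variance models, array weights, each array left out, the sex-distinct pools left out and, chosen after seeing the data, identical probe sets counted once.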

Additional observations from a re-analysis of the deposited data

How the results depend on the processing

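Over 17 alternatives the 4 genes past the threshold kept their direction. The count of 6 probe sets was 6 with no filter, a stricter filter, quantile or median scaling or a trended robust variance, 12 with array weights, 3 with identical probe sets counted once (Gart no longer passing), and 0 in a fit of the 6 arrays alone or without the 2 sex-distinct pools. Leaving out 1 array gave 0 to 11 probe sets, the highest without cKO replicate 2. The log2 fold change of Arf6 was -1.77 in the 6 arrays alone (limma adjusted p = 0.0811) and -1.81 without the 2 pools (0.179), and between -1.94 and -1.68 with 1 array left out (limma adjusted p of 0.00628 to 0.193). Probe sets whose groups did not overlap numbered 1713 (12.2%), 2696 of a larger set with no filter (11.5%), 4211 without the 2 pools and 1713 to 3690 with 1 array left out, since fewer arrays overlap less often. Where 1 Cre control was left out, the other added nothing to the estimate of the spread. Those alternatives therefore repeat the fit of the 6 arrays alone. No paired analysis was possible because the replicate numbers are the order of the accessions and pair no samples. The number of arrays limits the precision: the 95% interval of a log2 fold change reached 0.32 to each side in the median probe set.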

Other observations

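Some stretches of chromosome held several genes that differed. In windows of 21 consecutive tested genes the highest count at an unadjusted limma p under 0.05 was 9, reached by 0.0703% of windows, while 30.1% held 1. Windows overlap and neighbouring genes share regulation, so these are descriptions, and the stretches were chosen after their values were seen. Of all genes, 3.87% were lower and 4.26% higher at that p, 8.13% in either direction. On chromosome 7 around Leng1, 6 of 20 neighbours were lower at that p and none higher. Leng1 itself read 6.62, 6.73 and 6.94 in cKO arrays against 7.27, 7.52 and 7.45. Tsen34, a tRNA splicing endonuclease subunit, read 6.76, 7.05 and 7.01 against 7.46, 7.69 and 7.53. Rps9, a ribosomal protein, and Pirb, an inhibitory receptor, were lower as well, and no cKO array of Leng1, Tsen34, Rps9 or Pirb reached a flox control. On chromosome 10 around Stxbp5, 7 of 20 neighbours reached that p, 5 lower and 2 higher, among them Rab32, a GTPase of lysosome-related organelles, which was lower, and Shprh, a DNA repair ubiquitin ligase, which was higher. On chromosome 16 around Slc15a2 there were 4 of 20, with Cd86 and Lrrc58 higher and the stefin A genes Csta2 and Stfa2 lower.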
